A study of Triticum aestivum with 9 samples.

Results

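The MYB family is represented here by 45 wheat genes that the study's list of predicted transcription factors places in it. The list was made with iTAK, which assigns proteins to families by their conserved domains, and holds 457 genes under 49 family names, as counted here. It was drawn from genes that the study had called differentially expressed in the same libraries that are described here, so fold changes and counts of its members are a description and not independent evidence of a response. All 45 genes were found by their identifiers among the 130542 genes of the deposited table, and 0 of them stood in the study's list of hormone genes. Expression was measured by RNA-seq in seedling leaves of cultivar Yunong211, collected on day 2. The DTT + TUDCA group (T) received dithiothreitol, a reducing agent that prevents disulfide bonds from forming in the endoplasmic reticulum (ER), together with tauroursodeoxycholic acid, a bile acid that acts as a chemical chaperone. The DTT group (D) received dithiothreitol only, and the control group (C) received no chemical, with 3 biological replicates in each group. Seedlings given TUDCA alone were not analysed here, so TUDCA was measured only on top of DTT.

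MYB proteins bind DNA through repeats of a helix-turn-helix domain. In plants the family is large, and its members act as activators or repressors of genes for flavonoid and anthocyanin synthesis, cell shape, cell walls, the circadian clock and responses to drought, salt and light. Many of them work together with bHLH proteins on the same promoters. The wheat genome carries A, B and D copies of each chromosome, so closely similar genes on corresponding chromosomes can share reads, and levels of such copies are uncertain to that extent.

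Only a few members come with more than a family name. The study's text gives *Traes_1AS_36AF74187* as the ortholog of *Arabidopsis* MYB112, which promotes anthocyanin formation, and calls *Novel12259* a MYB-related gene. *Traes_4AS_3883DC244* is annotated after *Arabidopsis* MYB111, an activator of flavonol synthesis, and *TRAES3BF186800050CFD_g* and *Traes_3DS_61692C8F3* are annotated as Homeodomain-like superfamily proteins after the same *Arabidopsis* gene. *Novel02166* lies on chromosome 2B from 56044829 to 56045777, and *Novel12259* from 4152 to 9933 on a scaffold of the short arm of 1D, both on the plus strand of the wheat genome from Ensembl Plants, whose release number is not given in the sources used here. For the other members the identifier gives the chromosome and mostly the arm. The qRT-PCR primers that the study designed for 2 members are printed because they mark the transcripts whose values with TUDCA are given below, and they are written 5′ to 3′.
Novel12259 forward: ctgacgaggtgaccatactgct
Novel12259 reverse: gacctccacaagctttgcgt
Traes_1AS_36AF74187 forward: gccaccgatatcccggactt
Traes_1AS_36AF74187 reverse: tgagctcagtttggcgctct

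Values are FPKM as deposited, a fragment count normalised to transcript length and library size. Between 16328278 and 26747756 fragments on genes stood behind each library. Replicate 2 of DTT + TUDCA stood apart. In 2655 of 55137 genes its level differed more than 4-fold from the level averaged over its fellow replicates. The same count was 235 to 458 genes in each of the other libraries. Some of the called values that replicate 2 of DTT + TUDCA moved are also given without it. The 24 genes of the photosystem II oxygen evolving complex, which mark green leaf tissue, summed to 5196 to 5999 FPKM in DTT + TUDCA, 5005 to 5066 FPKM in DTT and 9159 to 11357 FPKM in control leaves, and none was at 0 in any library. These 24 genes were taken from the study's listing of genes called in D vs. C. Their difference between DTT and control thus follows from that selection and is not an independent measure of leaf tissue. The part of this difference in the MYB values was not tested. In leaf RNA, fewer cells of a type and less RNA per cell cannot be told apart.

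A gene counts as up-regulated or down-regulated below if limma gave an unadjusted *P*-value under 0.01 and a fitted log2 fold change of at least 1 in size, on log2(scaled FPKM + 0.1). Fold changes given as under DTT or under DTT + TUDCA are against control. The thresholds are those of the study's methods, and the added 0.1 makes the fold changes of low genes smaller than they are. Of the 45 members, 44 passed the filter of a mean FPKM of 0.1. In D vs. C, 12 of them were up-regulated and 21 down-regulated, while 11 did not pass. Among all 78030 genes tested, 4.27% were up-regulated and 3.75% down-regulated, and since the members were selected on this comparison nothing is read from the difference. The median log2 fold change of the 44 members was -1.12, beside -0.01 over all genes. Some members had at most 3 fragments in every library of a group. With these set to their bounds, or to the ratio of summed fragments where neither group was at 0, the member median was -1.18. All 3 DTT libraries lay above all 3 control libraries in 16 members and below them in 26, against 16.6% and 17.2% of all genes, and the groups overlapped in 2 members. These counts, and statements below on whether groups overlap, are on scaled FPKM. Leaving out each library in turn kept 9 of the 12 rises and 13 of the 21 falls in all 9 fits, and the count was lowest, at 24 members, without DTT replicate 3.

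**Figure D1:**
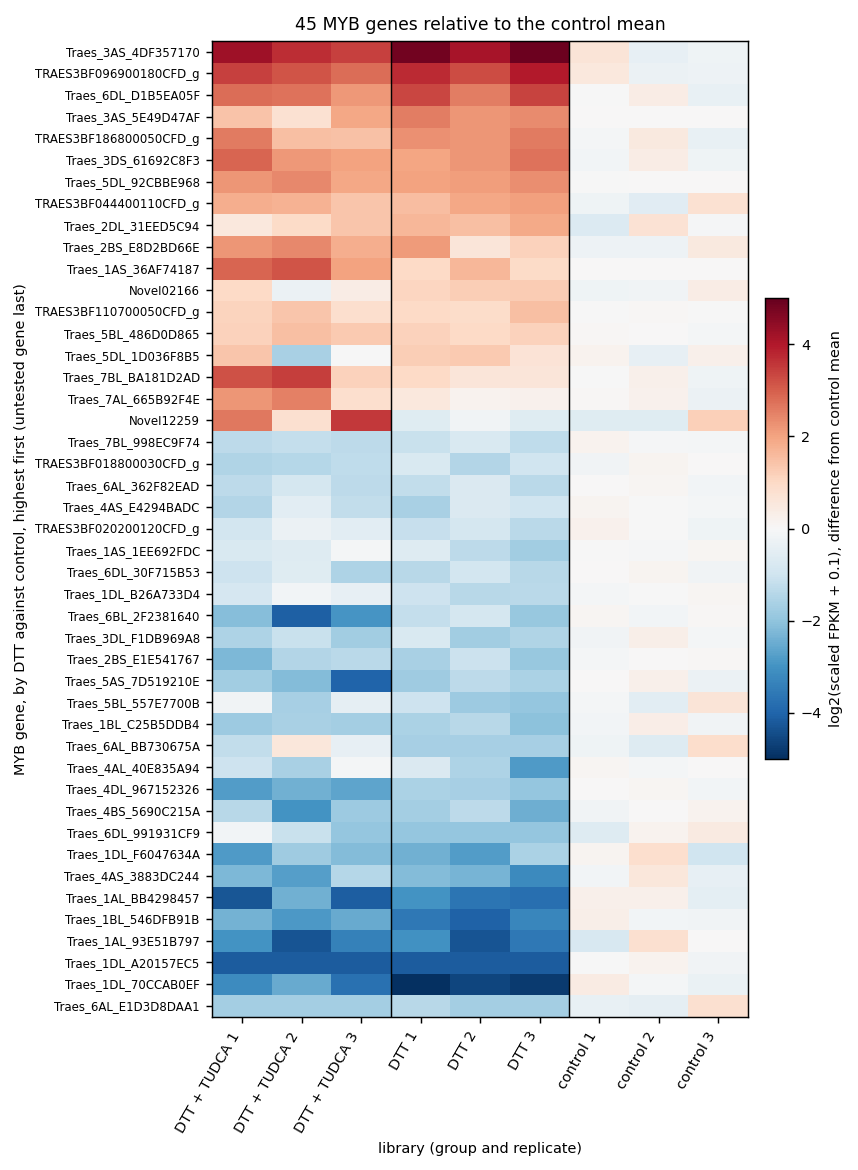
Expression of the 45 MYB genes (rows, sorted by the D vs. C fold change, with the untested gene last) in the 9 libraries (columns), as log2(scaled FPKM + 0.1) minus the mean of the control libraries on the colour scale. The upper rows are above the control mean in DTT, led by *Traes_3AS_4DF357170*, and the lower rows are below it, ending with *Traes_1DL_70CCAB0EF* among the tested genes, while a few rows are darkest in DTT + TUDCA only.

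The steepest rise was that of *Traes_3AS_4DF357170*. It had 58.6, 37.3 and 33.1 FPKM in DTT + TUDCA, 89.2, 54.4 and 91.5 FPKM in DTT and 4.07, 1.80 and 2.23 FPKM in control leaves. Every treated library was far above every control library. The log2 fold change was 4.61 ± 0.32 (SE, n = 3 libraries a group, as in all fits below) under DTT and 3.80 ± 0.32 under DTT + TUDCA. *TRAES3BF096900180CFD_g*, on chromosome 3B, was the next. Its levels were 30.9, 24.4 and 20.3 FPKM in DTT + TUDCA, 39.5, 28.8 and 45.1 FPKM in DTT and 3.59, 1.87 and 2.11 FPKM in control leaves. It rose by 3.64 ± 0.27 under DTT and by 3.12 ± 0.27 under DTT + TUDCA on the log2 scale. In both genes the libraries of DTT + TUDCA and DTT overlapped, and T vs. D stayed inside the thresholds, at -0.81 ± 0.32 for *Traes_3AS_4DF357170* and -0.52 ± 0.27 for *TRAES3BF096900180CFD_g*.

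Rises from a low control level were seen in *Traes_6DL_D1B5EA05F* and in the 2 Homeodomain-like genes. *Traes_6DL_D1B5EA05F* had 2.66, 2.40 and 1.68 FPKM in DTT + TUDCA, 4.14, 2.34 and 4.10 FPKM in DTT and 0.253, 0.340 and 0.187 FPKM in control leaves. Its log2 fold changes were 3.10 ± 0.32 under DTT and 2.55 ± 0.32 under DTT + TUDCA. *TRAES3BF186800050CFD_g* had 1.95, 0.8 and 0.843 FPKM in DTT + TUDCA, 1.61, 1.52 and 1.94 FPKM in DTT and 0.186, 0.3 and 0.137 FPKM in control leaves. *Traes_3DS_61692C8F3*, annotated after the same *Arabidopsis* gene, had 1.99, 1.08 and 1.02 FPKM in DTT + TUDCA, 1.03, 1.23 and 1.72 FPKM in DTT and 0.130, 0.209 and 0.119 FPKM in control leaves. The 2 genes thus rose to similar levels, with log2 fold changes in D vs. C of 2.37 ± 0.38 for the gene on 3B and 2.30 ± 0.35 for that on 3D. In T vs. C the values were 1.86 ± 0.38 on 3B and 2.36 ± 0.35 on 3D.

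*Traes_3AS_5E49D47AF* had no fragment in any control library. It had 0.181, 0.0708 and 0.298 FPKM in DTT + TUDCA and 0.534, 0.391 and 0.438 FPKM in DTT leaves, which rested on 3, 1 and 4 fragments in DTT + TUDCA and 9, 6 and 8 fragments in DTT. Against a floor of 3 fragments over the control group it was at least 6.86-fold higher in DTT and at least 2.83-fold higher in DTT + TUDCA. The rise in T vs. C did not pass the thresholds once the replicate number was taken as a block, or in 8 of the 9 fits with 1 library left out (all but that without DTT + TUDCA replicate 2), where the fitted value was between 1.11 and 1.39.

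Control levels were higher in 4 other genes that rose. *Traes_5DL_92CBBE968* had 22.3, 24.4 and 18.8 FPKM in DTT + TUDCA, 20.1, 21.6 and 24.4 FPKM in DTT and 4.16, 3.90 and 4.33 FPKM in control leaves. Its replicates were close together, with log2 fold changes of 2.14 ± 0.16 under DTT and 2.18 ± 0.16 under DTT + TUDCA. *Traes_5BL_486D0D865*, on the corresponding arm of 5B, had 17.0, 20.1 and 18.9 FPKM in DTT + TUDCA, 17.6, 15.5 and 16.9 FPKM in DTT and 6.88, 6.24 and 6.37 FPKM in control leaves. It rose by 1.10 ± 0.14 under DTT and by 1.32 ± 0.14 under DTT + TUDCA. *TRAES3BF110700050CFD_g* had 27.2, 31.0 and 22.4 FPKM in DTT + TUDCA, 26.2, 24.5 and 35.6 FPKM in DTT and 10.9, 10.6 and 11.0 FPKM in control leaves. Its log2 fold changes of 1.13 ± 0.19 under DTT and 1.10 ± 0.19 under DTT + TUDCA lay close to the threshold, and the calls were lost without DTT replicate 3 (0.95 under DTT) and without DTT + TUDCA replicate 2 (0.96 under DTT + TUDCA). *TRAES3BF044400110CFD_g* had 3.50, 3.11 and 2.59 FPKM in DTT + TUDCA, 3.03, 3.93 and 4.19 FPKM in DTT and 0.693, 0.474 and 1.49 FPKM in control leaves, and rose by 1.85 ± 0.34 under DTT and by 1.64 ± 0.34 under DTT + TUDCA.

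*Novel02166* and *Traes_2DL_31EED5C94* passed the thresholds in D vs. C only. *Novel02166* had 6.81, 2.58 and 4.36 FPKM in DTT + TUDCA, 7.34, 8.32 and 8.24 FPKM in DTT and 2.55, 2.42 and 3.89 FPKM in control leaves. *Traes_2DL_31EED5C94* had 0.198, 0.285 and 0.436 FPKM in DTT + TUDCA, 0.564, 0.501 and 0.660 FPKM in DTT and 0.0226, 0.194 and 0.0832 FPKM in control leaves. In both, every DTT library was above every library of the other groups, while DTT + TUDCA and control overlapped, in *Traes_2DL_31EED5C94* only after scaling. The T vs. D values were -0.83 ± 0.30 for *Novel02166* and -0.71 ± 0.43 for *Traes_2DL_31EED5C94*, which did not pass. The D vs. C call of *Novel02166* (1.19 ± 0.30) was lost without control replicate 1 or 2 or DTT replicate 2 or 3, with values of at least 1.09, and that of *Traes_2DL_31EED5C94* (1.68 ± 0.43) without control replicate 1 or 3 or DTT replicate 3, with values of at least 1.35.

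**Figure D2:**
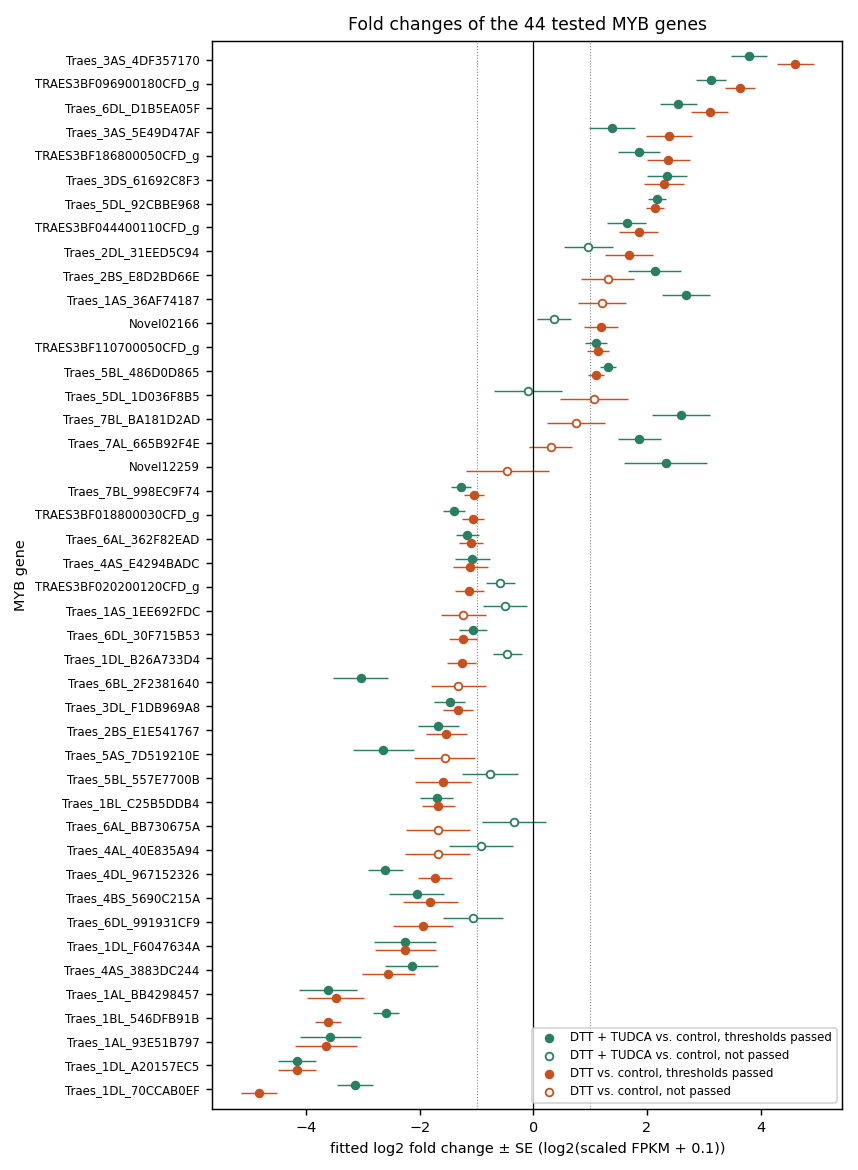
Fitted log2 fold changes (horizontal axis) of the 44 tested MYB genes (rows) in T vs. C (green) and D vs. C (orange), with bars of 1 SE, filled points for genes past the thresholds and dotted lines at -1 and 1. The values run from -4.83 (*Traes_1DL_70CCAB0EF*) to 4.61 (*Traes_3AS_4DF357170*) in D vs. C, and points of genes that are at 0 in a whole group depend on the added 0.1.

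Among the 21 genes down-regulated by DTT, the largest falls were on the long arms of 1A, 1B and 1D. *Traes_1DL_70CCAB0EF* had 3.45, 5.02 and 2.24 FPKM in DTT + TUDCA, 0.809, 1.25 and 1.05 FPKM in DTT and 36.5, 23.7 and 22.3 FPKM in control leaves. *Traes_1BL_546DFB91B* had 13.0, 8.50 and 11.8 FPKM in DTT + TUDCA, 5.83, 4.09 and 7.02 FPKM in DTT and 72.0, 50.5 and 53.9 FPKM in control leaves. The 3 groups did not overlap in either gene, with control highest and DTT lowest. Under DTT, *Traes_1DL_70CCAB0EF* changed by -4.83 ± 0.32 and *Traes_1BL_546DFB91B* by -3.62 ± 0.23 on the log2 scale. Under DTT + TUDCA, the changes were -3.14 ± 0.32 for *Traes_1DL_70CCAB0EF* and -2.59 ± 0.23 for *Traes_1BL_546DFB91B*. Both transcripts had an implied length of 301 bp.

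Lower in abundance, *Traes_1AL_BB4298457* had 0.110, 0.646 and 0.136 FPKM in DTT + TUDCA, 0.433, 0.238 and 0.2 FPKM in DTT and 4.28, 3.99 and 2.57 FPKM in control leaves. Its log2 fold change was -3.48 ± 0.50 under DTT and -3.61 ± 0.50 under DTT + TUDCA (-4.21 without DTT + TUDCA replicate 2). *Traes_1AL_93E51B797* was close to absent after both treatments, with 2, 0 and 1 fragments in DTT + TUDCA, 2, 0 and 1 fragments in DTT and 12, 33 and 30 fragments in control leaves. From the summed fragments the gene was 27.9-fold lower in DTT than in control leaves (95% counting interval 9.2 to 138) and 23.5-fold lower in DTT + TUDCA (7.75 to 117). *Traes_1DL_A20157EC5* had no fragment in the 6 treated libraries, against 9, 9 and 11 fragments (1.54, 1.65 and 1.38 FPKM) in control leaves, so that it was at least 10.8-fold lower in DTT and at least 9.1-fold lower in DTT + TUDCA. These intervals and floors cover counting error only. *Traes_1DL_F6047634A* had 0.0664, 0.234 and 0.165 FPKM in DTT + TUDCA, 0.131, 0.0720 and 0.302 FPKM in DTT and 1.09, 1.68 and 0.452 FPKM in control leaves. Its change of -2.25 ± 0.54 in D vs. C lost its call without control replicate 2 (-1.83), as did that in T vs. C (-1.84), where summed fragments gave a 7.53-fold lower level (3.22 to 21.5) in DTT + TUDCA.

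*Traes_4AS_3883DC244*, the gene annotated after the flavonol regulator MYB111, had 0.198, 0.0995 and 0.419 FPKM in DTT + TUDCA, 0.222, 0.183 and 0.0513 FPKM in DTT and 1.04, 1.62 and 0.853 FPKM in control leaves. Its control libraries were above all 6 treated ones, and it changed by -2.55 ± 0.46 under DTT and by -2.14 ± 0.46 under DTT + TUDCA. *Traes_6DL_991931CF9* had no fragment in DTT leaves, with 4, 1 and 0 fragments in DTT + TUDCA and 2, 4 and 8 in control leaves, and was at least 5.21-fold lower in DTT than in control leaves. With so few fragments its D vs. C call was lost without control replicate 2 or 3 or any of the DTT replicates, with fitted values of -1.94 to -1.71.

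*Traes_4DL_967152326* had 0.0897, 0.141 and 0.111 FPKM in DTT + TUDCA, 0.354, 0.324 and 0.245 FPKM in DTT and 1.10, 1.09 and 0.995 FPKM in control leaves. The 3 groups were separate, with DTT + TUDCA lowest, and the log2 fold changes were -1.73 ± 0.30 under DTT and -2.60 ± 0.30 under DTT + TUDCA, while T vs. D, at -0.87 ± 0.30, stayed inside the thresholds. *Traes_4BS_5690C215A* had 0.218, 0 and 0.135 FPKM in DTT + TUDCA, 0.161, 0.236 and 0.0494 FPKM in DTT and 0.557, 0.599 and 0.740 FPKM in control leaves. It changed by -1.81 ± 0.49 under DTT and by -2.06 ± 0.49 under DTT + TUDCA (-1.59 without DTT + TUDCA replicate 2). The D vs. C call was lost without control replicate 2 (-1.81) or 3 (-1.73) or DTT replicate 3 (-1.50).

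The remaining 11 falls in D vs. C had log2 fold changes from -1.67 (*Traes_1BL_C25B5DDB4*) to -1.04 (*Traes_7BL_998EC9F74*). Of these, *TRAES3BF018800030CFD_g*, *Traes_2BS_E1E541767*, *Traes_3DL_F1DB969A8*, *Traes_4AS_E4294BADC*, *Traes_6AL_362F82EAD*, *Traes_6DL_30F715B53*, *Traes_1BL_C25B5DDB4* and *Traes_7BL_998EC9F74* also fell under DTT + TUDCA, with log2 fold changes from -1.70 (*Traes_1BL_C25B5DDB4*) to -1.06 (*Traes_6DL_30F715B53*). The values under DTT + TUDCA did not pass for *TRAES3BF020200120CFD_g*, *Traes_1DL_B26A733D4* (-0.46 ± 0.26) and *Traes_5BL_557E7700B* (-0.76 ± 0.49). *TRAES3BF020200120CFD_g* had by far the highest FPKM of the family, with 825, 1206 and 1072 FPKM in DTT + TUDCA, 733, 867 and 614 FPKM in DTT and 1604, 1260 and 1197 FPKM in control leaves. Its implied length was only 231 bp, the shortest of the 45, so that 3158 to 7400 fragments a library gave these values. Its change was -1.13 ± 0.25 under DTT and -0.58 ± 0.25 under DTT + TUDCA, but with quantile normalization the values were -0.25 under DTT and 0.14 under DTT + TUDCA, so that the call was lost and the direction under DTT + TUDCA turned. With unscaled FPKM, the calls under DTT + TUDCA were lost for *Traes_4AS_E4294BADC* (-0.89), *Traes_6AL_362F82EAD* (-0.97) and *Traes_6DL_30F715B53* (-0.87). With unscaled FPKM, 7 of these 11 calls under DTT were lost, those of *TRAES3BF020200120CFD_g*, *TRAES3BF018800030CFD_g*, *Traes_4AS_E4294BADC*, *Traes_5BL_557E7700B*, *Traes_6AL_362F82EAD*, *Traes_6DL_30F715B53* and *Traes_7BL_998EC9F74*. Single libraries decided several of them. The call under DTT was lost for *TRAES3BF018800030CFD_g* without control replicate 2 (-0.99) or DTT replicate 2 (-0.87), for *Traes_6AL_362F82EAD* without DTT replicate 3 (-0.98), and for *Traes_7BL_998EC9F74* without control replicate 1 (-0.96) or DTT replicate 3 (-0.94). It was also lost for *Traes_4AS_E4294BADC* without DTT replicate 1 (-0.86) or 3 (-1.18) or any control replicate (-1.17 to -1.05). *Traes_5BL_557E7700B* lost it without control replicate 1 (-1.65) or 3 (-1.28), DTT replicate 2 (-1.48) or 3 (-1.43) or DTT + TUDCA replicate 3 (-1.60). Under DTT + TUDCA, *Traes_4AS_E4294BADC* lost its call without DTT + TUDCA replicate 1 (-0.87) or 3 (-0.99) or any control replicate (-1.13 to -1.01), and *Traes_6DL_30F715B53* without control replicate 2 (-0.99) or DTT + TUDCA replicate 3 (-0.83).

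At the edge of the thresholds in D vs. C, *Traes_7BL_998EC9F74* (-1.04 ± 0.18) and *Traes_5BL_486D0D865* (1.10 ± 0.14) just passed. *Traes_1AS_1EE692FDC* (-1.23 ± 0.39) and *Traes_5DL_1D036F8B5* (1.07 ± 0.60) did not pass because of their spread.

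In T vs. C, which shares its control libraries with D vs. C, 15 members were up-regulated and 19 down-regulated, against 4.36% and 3.5% of all genes, and 10 did not pass. The DTT + TUDCA libraries were all above the control libraries in 14 members and all below in 23, where 15.3% and 15.7% of all genes were, and 7 overlapped. The median log2 fold change was -0.67, beside -0.02 over all genes. Without DTT + TUDCA replicate 2, 33 members were called.

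*Traes_2BS_E8D2BD66E* and *Traes_5AS_7D519210E* passed the thresholds in T vs. C and in no other comparison. *Traes_2BS_E8D2BD66E* had 17, 16 and 10 fragments in DTT + TUDCA, 17, 3 and 7 in DTT and 0, 0 and 3 in control leaves. The level was 15.2-fold higher in DTT + TUDCA than in control leaves (4.87 to 76.7) and 8.06-fold higher in DTT (2.48 to 41.5), with DTT replicate 1 inside the range of the DTT + TUDCA libraries. These intervals leave out the spread between replicates. *Traes_5AS_7D519210E* had 0.404, 0.259 and 0 FPKM in DTT + TUDCA, 0.398, 0.597 and 0.468 FPKM in DTT and 1.43, 1.58 and 1.14 FPKM in control leaves. Control was above both treatments in every library, and the changes were -2.64 ± 0.53 under DTT + TUDCA (-1.95 without DTT + TUDCA replicate 3) and -1.56 ± 0.53 under DTT, the second of which did not pass.

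The question of which MYB genes moved with TUDCA is that of T vs. D. In this comparison 6 members were higher and 1 was lower past the thresholds, against 0.632% and 0.466% of all genes, and 37 did not pass. All DTT + TUDCA libraries were above all DTT libraries in 8 members and below in 5, where 5.56% and 5.05% of all genes were. With *P*-values adjusted over all genes by the Benjamini-Hochberg method, limma called 0 members and 1 of the 78030 genes (0.00128%). An unadjusted *P*-value under 0.05 was seen in 13 of the 44 members, against 7.42% of all genes, and in 15 with limma-voom on fragments, against 7.34%, which also called 0 members after adjustment. With the same adjustment, 31 members were called in each of the comparisons against control. Of all genes, 6.76% were called under DTT and 5.73% under DTT + TUDCA. Since the members were selected on these libraries, nothing is read from these counts beside the shares of all genes, in T vs. D as well. The single call that held in all 9 fits with 1 library left out was *Traes_1DL_70CCAB0EF*, at 1.69 ± 0.32 (1.38 without DTT + TUDCA replicate 2). Without that replicate 4 members were called.

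**Figure D3:**
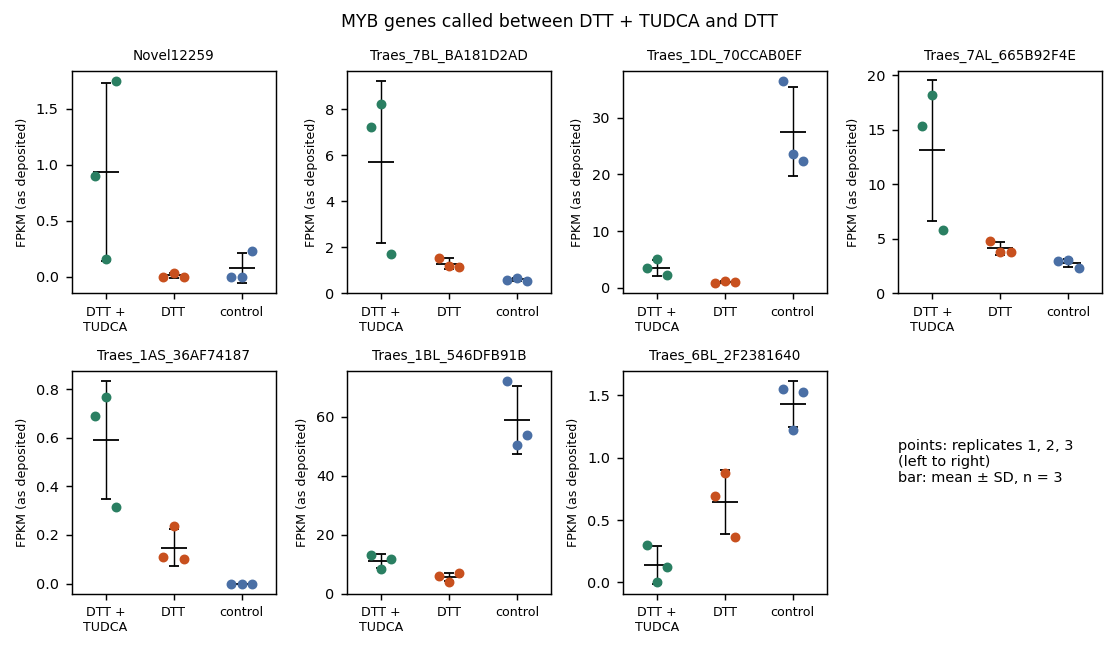
Deposited FPKM (vertical axes, each with its own scale) of the 7 MYB genes past the thresholds in T vs. D, with a point for each library of DTT + TUDCA, DTT and control and bars for the mean ± SD (n = 3). In *Traes_1DL_70CCAB0EF* and *Traes_1BL_546DFB91B* the DTT + TUDCA points lie between DTT and control, and in *Traes_7AL_665B92F4E* and *Traes_7BL_BA181D2AD* replicates 1 and 2 of DTT + TUDCA lie well above replicate 3.

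The 6 genes that were higher in DTT + TUDCA than in DTT fell into 2 patterns. *Traes_1DL_70CCAB0EF* and *Traes_1BL_546DFB91B*, the 301 bp transcripts described above, were down-regulated by DTT and lay between DTT and control with TUDCA. *Traes_1BL_546DFB91B* averaged 11.1 ± 2.3 FPKM in DTT + TUDCA, 5.65 ± 1.5 FPKM in DTT and 58.8 ± 12 FPKM in control leaves (SD, n = 3). Its T vs. D value of 1.03 ± 0.23 lost the call without DTT replicate 2 (0.81) or DTT + TUDCA replicate 1 (0.92) or 3 (0.99), and with unscaled FPKM (0.97).

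The second pattern, with no call in D vs. C and the highest level in DTT + TUDCA, was seen in 4 genes. *Traes_7AL_665B92F4E* had 15.3, 18.1 and 5.83 FPKM in DTT + TUDCA, 4.80, 3.79 and 3.77 FPKM in DTT and 2.96, 3.08 and 2.34 FPKM in control leaves. *Traes_7BL_BA181D2AD*, on the same arm of 7B, had 7.23, 8.25 and 1.7 FPKM in DTT + TUDCA, 1.56, 1.17 and 1.13 FPKM in DTT and 0.596, 0.686 and 0.534 FPKM in control leaves. In both genes replicate 3 of DTT + TUDCA was far below replicates 1 and 2 and still above every DTT library. The T vs. D values were 1.56 ± 0.38 on 7A and 1.85 ± 0.51 on 7B, and the T vs. C values 1.86 ± 0.38 on 7A and 2.60 ± 0.51 on 7B. Without DTT + TUDCA replicate 2, *Traes_7AL_665B92F4E* gave 1.22 in T vs. D and 1.52 in T vs. C. Without DTT + TUDCA replicate 3, *Traes_7BL_BA181D2AD* gave 2.57 in T vs. D and 3.32 in T vs. C. Its T vs. C value was 2.17 without DTT + TUDCA replicate 2. The T vs. D call was lost for *Traes_7AL_665B92F4E* without DTT + TUDCA replicate 1 (1.38), and for *Traes_7BL_BA181D2AD* without DTT replicate 2 or 3 (1.79 each) or DTT + TUDCA replicate 1 (1.56) or 2 (1.42).

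*Traes_1AS_36AF74187*, the ortholog of MYB112, had no fragment in any control library. It had 0.690, 0.768 and 0.315 FPKM in DTT + TUDCA and 0.107, 0.236 and 0.0990 FPKM in DTT leaves, from 19, 18 and 7 fragments in DTT + TUDCA and 3, 6 and 3 fragments in DTT. All libraries of DTT + TUDCA were above all of DTT, and all of DTT above control. The gene was at least 15.6-fold higher in DTT + TUDCA and at least 3.58-fold higher in DTT than in control leaves, the second without passing the thresholds. In D vs. C it passed with 0.01 added before the log2, without the low-value filter, without the variance trend and with limma-voom. T vs. D gave 1.48 ± 0.43, a call that was lost without DTT replicate 1 (1.37) or 3 (1.35) or DTT + TUDCA replicate 1 (1.36) or 2 (1.25).

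*Novel12259*, the MYB-related gene, had most of its fragments in DTT + TUDCA. It had 0.896, 0.162 and 1.75 FPKM in DTT + TUDCA (26, 4 and 41 fragments), 0, 0.0373 and 0 FPKM in DTT (1 fragment in all) and 0, 0 and 0.235 FPKM in control leaves (9 fragments, all in replicate 3). Replicate 2 of DTT + TUDCA lay below control replicate 3, so these groups overlapped. Summed fragments gave an 84.3-fold higher level in DTT + TUDCA than in DTT (14.6 to 3375), an interval that leaves out the spread between replicates. The fitted log2 fold change in T vs. D, on which the call rests, was 2.79 ± 0.73. The T vs. D call was lost without DTT replicate 1 or 3 (2.72 each) or DTT + TUDCA replicate 1 (2.63) or 3 (2.18). The value was 3.55 without DTT + TUDCA replicate 2. The T vs. C value of 2.33 ± 0.73 lost its call in 7 of the 9 fits, in which 1.72 without DTT + TUDCA replicate 3 was the lowest, and held only without control replicate 3 (2.93) or DTT + TUDCA replicate 2 (3.09).

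The single member that fell with TUDCA was *Traes_6BL_2F2381640*. It had 0.303, 0 and 0.125 FPKM in DTT + TUDCA (3, 0 and 1 fragments), 0.696, 0.874 and 0.367 FPKM in DTT and 1.55, 1.22 and 1.53 FPKM in control leaves. The 3 groups did not overlap, with control highest and DTT + TUDCA lowest. From summed fragments it was 4-fold lower in DTT + TUDCA than in DTT (1.33 to 16.2) and 10.8-fold lower than in control leaves (3.95 to 41.4). These intervals cover counting error only. Its fitted log2 fold change in T vs. D was -1.72 ± 0.49. In T vs. C it was -3.04 ± 0.49 (-2.53 without DTT + TUDCA replicate 2). The T vs. D call was lost without DTT replicate 1 (-1.65) or 2 (-1.50) or DTT + TUDCA replicate 2 (-1.20) or 3 (-1.77).

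There were 5 members without a call in any comparison. *Traes_6AL_E1D3D8DAA1*, too low to be tested, had 0 fragments in DTT + TUDCA, 1 in DTT and 5, 4 and 21 in control leaves. *Traes_6AL_BB730675A* had 1, 8 and 3 fragments in DTT + TUDCA, none in DTT and 4, 2 and 15 in control leaves. It was at least 7.82-fold lower in DTT than in control leaves and at least 4.75-fold higher in DTT + TUDCA than in DTT, although neither passed the thresholds. With 0.01 added before the log2, both did. *Traes_5DL_1D036F8B5* varied widely within DTT + TUDCA, with 8.74, 0.945 and 3.24 FPKM in DTT + TUDCA, 8.12, 8.71 and 5.30 FPKM in DTT and 3.30, 1.99 and 3.49 FPKM in control leaves. *Traes_1AS_1EE692FDC* and *Traes_4AL_40E835A94* stayed below 0.6 FPKM in every library. Both passed in D vs. C with quantile normalization and with limma-voom.

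The members were unevenly spread over the chromosomes, and so were the directions in D vs. C. By identifier, each chromosome group held between 7201 and 10632 tested genes. Of 11 members on group 1 chromosomes, 0 were up-regulated by DTT and 8 were down-regulated, whereas of 10 members on group 3, 7 were up-regulated and 3 down-regulated. Among all tested genes whose identifiers name a chromosome, 4.6% of group 1 genes were up-regulated and 4.16% down-regulated, and 4.63% of group 3 genes were up-regulated and 3.66% down-regulated. Over all 7 groups these shares ran from 4.07% to 5.02% up-regulated and from 3.66% to 5.06% down-regulated. Group 4 held 5 members with 0 rises and 4 falls. The other groups were mixed, with 2 rises and 1 fall of 4 members on group 2, 2 and 1 of 5 on group 5, 1 and 3 of 7 on group 6, and 0 and 1 of 3 on group 7. By genome, 2 rises and 5 falls were among 14 members of A, 6 and 8 among 17 of B, and 4 and 8 among 14 of D. Over all tested genes, 4.26% of A, 4.55% of B and 4.78% of D were up-regulated, and 4.02%, 4.27% and 4.53% of the same genomes were down-regulated. The members were selected on these libraries, so nothing is read from their counts beside the shares of all genes. Members on corresponding arms may be copies of each other, so they are not independent, and the grouping was not tested.

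**Figure D4:**
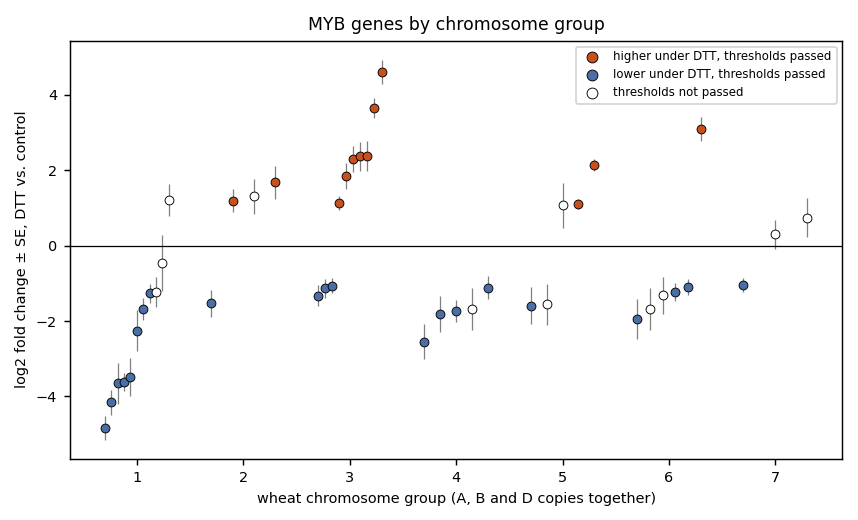
Log2 fold change in D vs. C (vertical axis, bars of 1 SE) of the 44 tested MYB genes by wheat chromosome group (horizontal axis), coloured by whether they were higher or lower under DTT past the thresholds. The 8 coloured points of group 1 are all below 0, and group 3 has 7 points above and 3 below.

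Set beside the other families of the same list, the balance of rises and falls in MYB depended on the scale. In D vs. C, 12 of the 44 MYB genes were up-regulated and 21 down-regulated, with a median log2 fold change of -1.12, against 160 and 146 of 406 other transcription factors, with a median of 0.30. With unscaled FPKM the counts were 12 up and 14 down for MYB, against 178 up and 99 down for the other families. With 1 added before the log2 they were 9 up and 8 down for MYB, against 93 up and 83 down. The bHLH genes, whose proteins are known partners of MYB proteins, had 14 rises and 13 falls of 30 tested and a median of 0.94. The G2-like genes, which carry a MYB-like DNA-binding domain, had 4 rises and 9 falls of 16 and a median of -1.02. With unscaled FPKM, bHLH had 15 rises and 8 falls and G2-like 5 and 5, and with 1 added they had 9 and 7 (bHLH) and 0 and 6 (G2-like). In T vs. C, the MYB counts given above stood beside 147 rises and 94 falls for the other families (median 0.53), 9 and 7 for bHLH (0.48) and 4 and 6 for G2-like (-0.69). In T vs. D they stood beside 18 and 11 for the other families, 1 and 1 for bHLH and 1 and 0 for G2-like. All of these lists were selected by the study in the same way, so the counts are given side by side, and the difference between families was not tested.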

How the data were processed

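The authors prepared non-strand-specific NEBNext Ultra libraries, removed adapter and low-quality reads, mapped the pairs with TopHat2 2.0.12 and Bowtie2 2.2.3, counted with HTSeq 0.6.1 per the submitters' processing notes, and deposited FPKM values, unscaled between libraries. The genome was that of Ensembl Plants, with scaffold names of the IWGSC survey assembly, and its release number is not given in the sources used here. Each FPKM value is a multiple of what 1 fragment is worth, so fragments were recovered for 100% of the genes above 0, with whole transcript lengths (within 0.05 bp) for 99.99% of them.

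The libraries were scaled by median-ratio factors (0.853 to 1.085), and log2(scaled FPKM + 0.1) of the 78030 genes with a mean of at least 0.1 was fitted with limma 3.58.1 in R 4.3.3, with 3 groups, 9 libraries and a variance trend. Without scaling, the median over all genes lay 0.22 above control in DTT and 0.16 above it in DTT + TUDCA (log2). Steps were tested on simulated data. The 95% counting intervals are exact conditional intervals on summed fragments, and all of them leave out the spread between replicates. Deviations from the group mean were correlated across genes between same-numbered libraries, for replicates 1, 2 and 3 in turn. The r values were 0.16, 0.18 and 0.12 for T and C, and -0.05, 0 and -0.05 for D and C. They were 0.04, 0.04 and -0.17 for T and D. Differently numbered libraries were not compared, so these values cannot show whether libraries with the same number belong together. No source names a shared batch, and the replicate block was an alternative.

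Named genes were those in the study's text or with a description, the 8 largest rises and falls of D vs. C that were called without overlap, all calls of T vs. D, and the next 3 rises and falls of T vs. C, and others named were chosen after their values were seen. The members and lists were chosen with earlier results of these data known. A RefSeq table of wheat genes matched 0 of the 45 identifiers. Alternatives were other added values, filters, scalings and thresholds, limma-voom on fragments, and leaving out each library.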

Additional observations from a re-analysis of the deposited data

How the results depend on the processing

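Each call of the genes named by the rule kept its direction under the alternatives that could be fitted, with 0 reversals. *TRAES3BF020200120CFD_g*, not called in T vs. C, turned to 0.14 there with quantile normalization. With 1 added before the log2, 17 members were called in D vs. C (8 down), 20 in T vs. C (9 up, 11 down) and 3 in T vs. D (3 up, 0 down). With a minimum mean FPKM of 1, which left 23 members, they were 20 (11 down), 19 (9 down) and 4 (0 down). With only the 2 groups compared in the model, T vs. D had 4 calls (0 down). With adjusted *P*-values it had 0 (0 up, 0 down) by limma. The single fall in T vs. D was also lost with 0.01 added and with limma-voom (0 down each). With unscaled FPKM the calls were 26, 31 and 6. Some settings raised the 33 calls of D vs. C. Limma-voom gave 39, and 37 each came without the low-value filter, without the variance trend and with only the 2 groups compared. The same settings gave 33, 35, 33 and 32 calls in T vs. C, against 34. With each library left out, D vs. C had 24 to 36 calls (9 to 12 up, 15 to 24 down), T vs. C 29 to 33 (13 to 14 up, 16 to 19 down) and T vs. D 4 to 7 (1 to 6 up, 0 to 3 down). With the replicate block there were 32, 33 and 7 calls: *Traes_6DL_991931CF9* lost its call in D vs. C and *Traes_3AS_5E49D47AF* in T vs. C, and no other call changed. Low fragment numbers limit most of the genes below 1 FPKM, whose fold changes depend on the added value.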
